A study of Mus musculus with 6 samples.

Results

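Collagen VI and a group of network-forming, fibril-associated and basement-membrane-zone collagens were followed in mouse mesenchymal stem cells with and without Dicer. The 8 genes were Col6a1, Col6a2, Col6a3, Col8a1, Col12a1, Col14a1, Col15a1 and Col18a1. They were chosen by name, and all 8 were present among the 23227 genes of the exonic tables and the 23231 genes of the intronic tables, which name 43 and 42 collagen genes. Dicer KO cells (Dicer -/-) were set against Dicer WT cells (Dicer f/f), both immortalized lines grown from 1 cell. WT cells transfected with a vector carrying Pbx3, Sox9 or Tead4 were each set against WT cells with the empty vector, so these 3 comparisons share their control. As a single clone stands for each genotype, a difference between clones and one between genotypes cannot be told apart. The labels call the same cells both mesenchymal stem cells and fibroblasts. Total RNA was depleted of ribosomal RNA and sequenced, and reads over exons and over introns were tabulated separately. In these 6 groups, fewer cells making a transcript and less of it per cell cannot be told apart.

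The labels list 1 sample per group, while every deposited group mean resolved into the whole reads of 2 libraries, 12 in all. Exonic reads numbered between 6130267 and 23501655 per library and intronic reads between 3156973 and 10205497. Of 10 stromal markers, 9 were present, with a summed level of 2925 to 5989 RPM (exonic reads scaled to the library total), and Thy1 had 0 reads in all 12 libraries. Most of this sum was Vim, at 2078 to 4651 RPM, while Nt5e had at most 16.1 RPM. The summed level of the 4 haematopoietic markers stayed between 1.38 and 2.80 RPM, of the 4 endothelial markers between 0 and 0.640, of the 4 epithelial markers between 0 and 0.596 and of the 4 muscle markers between 1.499 and 8.69. Ptprc reached at most 1 read and Cdh5, Krt18 and Myog had 0 reads throughout. The highest of each list were Cd68, with 11 to 65 reads per library, Pecam1, with at most 11, Krt8, with at most 14, and Des, with 13 to 197. Pbx3 had 36740.2 and 27165 normalised counts in Pbx3 libraries, against 221 and 259 in vector libraries. Tead4 had 6866 and 5050.1 in Tead4 libraries, against 40.7 and 38.8 in vector libraries. Sox9 had 186 and 179 normalised counts in the libraries labelled Sox9, against 47.5 and 116 in vector libraries, and did not pass the test (limma adjusted p = 0.272). Dicer1 had 935 and 1067 in KO libraries, against 1407 and 1343 in WT libraries (limma adjusted p = 0.0859). This total covers the whole gene and cannot check the loss of some of its exons.

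Collagen VI is built from the products of Col6a1, Col6a2 and Col6a3, which join as a trimer and assemble outside the cell into beaded microfilaments that link cells to the surrounding matrix. Collagens XII and XIV lie on the surface of collagen I fibrils, collagens XV and XVIII lie in or beside basement membranes, and collagen VIII forms hexagonal networks of its own. Stromal cells are a main source of collagen VI. Dicer cuts precursor hairpins into mature microRNAs, which pair through their seed, bases 2 to 8, with sites in the 3′ untranslated region (UTR) of their targets. The miR-29 family is known for targeting collagen transcripts and the let-7 family is abundant in differentiated cells. Their mature sequences are shown because 5 of the 8 collagen genes carry a match to one of these 2 seeds. The capitals mark the seed, and the sequences are from RefSeq on GRCm38.p6.
mmu-miR-29a-3p: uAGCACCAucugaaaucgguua
mmu-let-7a-5p: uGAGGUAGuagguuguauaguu

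The reverse complement of the miR-29 seed, TGGTGCT, stood in the annotated 3′ UTRs of 4 of the 8 genes, namely Col6a2, Col6a3, Col8a1 and Col15a1, against 13.1% of 20894 mouse 3′ UTRs. In each of the 4 the match was followed by an A, and each gene held 1 such match. The let-7 counterpart, CTACCTC, stood in the Col14a1 3′ UTR alone, against 8.99% of all 3′ UTRs. The sites, written 5′ to 3′ as on the transcript with the seed match in capitals, were taken from the GENCODE vM21 annotation of GRCm38.
Col6a2: acaaatgggggTGGTGCTatttgaacgct
Col6a3: acctgtcaataTGGTGCTaaatgtgtcta
Col8a1: atattctaccaTGGTGCTaatatcagagc
Col15a1: aatccacatatTGGTGCTagattctgcag
Col14a1: cactgaggaaaCTACCTCctacttgttta
A letter match is a description of the sequence, and microRNA levels and binding were not measured in these libraries. Of 13 microRNA seeds searched, those of miR-22-3p, miR-125b-5p and miR-221-3p matched none of the 8 genes. Col6a2 and Col12a1 held the most matches, with 6 each. Col6a1 and Col18a1 had 1 match each, to miR-23a-3p and to miR-27a-3p.

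The length of a gene was taken as the merged exons of its annotated protein-coding transcripts, which can exceed the length of any single transcript. Levels were compared between genes as RPKM, exonic RPM over this length in kilobases, a scale that allows for length. On it Col6a1 was the highest of the 8 genes in every group, at 273 ± 124 RPKM in Dicer KO and 408 ± 119 RPKM in Dicer WT cells (SD, n = 2 libraries each). Col12a1 was next in 5 of the 6 groups, with 176 ± 35.8 in KO and 202 ± 20.01 in WT cells. In KO cells the libraries of Col6a1 and Col12a1 overlapped, so their order there is within the spread. Col8a1 had 95.4 ± 10.9 in KO and 146 ± 29.5 in WT cells, and Col6a2 had 60.7 ± 31.5 and 90.2 ± 25.5 in the same order. Col6a3 followed below Col6a2 in both, at 21.7 ± 1.95 in KO and 70.5 ± 2.04 in WT cells. From Col6a3 downward the levels dropped steeply. Col18a1 had 5.65 ± 1.48 in KO and 3.54 ± 1.66 in WT cells, and Col15a1 only 0.197 ± 0.129 and 0.811 ± 0.298. Col14a1 was close to absent, with at most 7 exonic reads in a library.

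The factor-transfected cells kept Col6a1 in first place, with means of 211 ± 62.6, 316 ± 91.9, 190.1 ± 65.4 and 244 ± 89.3 RPKM in Pbx3, Sox9, Tead4 and vector cells. The order below it differed. Col6a3 came next after Col12a1 in Sox9 cells, at 115 ± 25.7, above Col6a2 at 73.1 ± 8.32 and Col8a1 at 45.04 ± 18.9, with no overlap between neighbours. In vector cells Col8a1 stood in that place, at 77.7 ± 5.30, and Col6a3 and Col6a2 followed at 51.6 ± 7.62 and 51.2 ± 21.2 with overlapping libraries. In Tead4 cells Col8a1, at 91.9 ± 1.66, came before Col12a1, at 83.6 ± 16.1, again within the spread. The 8 genes together took 40.3% and 48.6% of all collagen reads in the KO libraries and 41.0% and 50.9% in the WT libraries. These shares were 48.1% and 42.3% in Pbx3, 35.8% and 38.0% in Sox9, 43.2% and 44.1% in Tead4 and 46.8% and 45.3% in vector libraries.

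**Figure D1:**
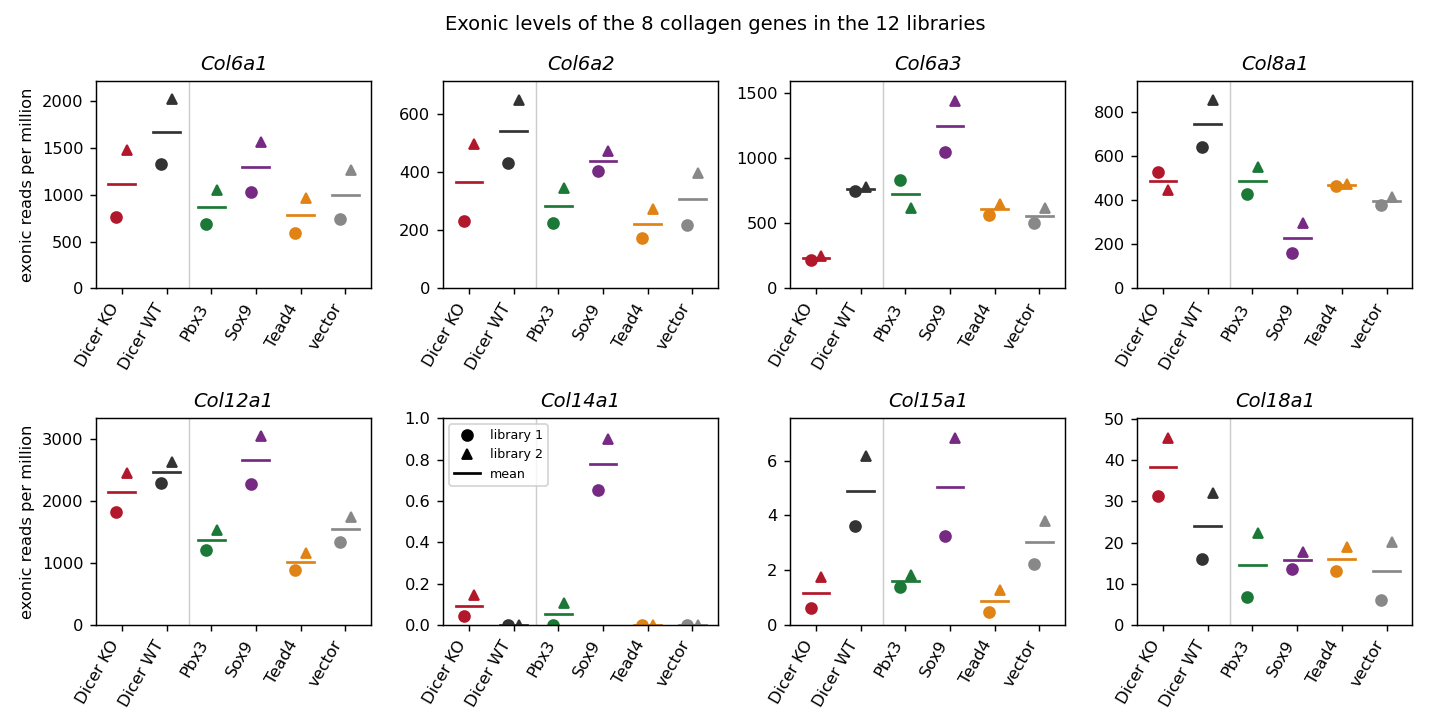
Exonic RPM (y axis, from 0) of each collagen gene in the 2 libraries of each of the 6 groups, with the mean as a bar; the grey line separates the Dicer groups from the transfected groups. Col6a3 was lowest in the Dicer KO libraries, at 221 and 251, and Col14a1 had at most 0.901 RPM.

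Col6a3 fell in Dicer KO cells, to 0.311 times the WT level in exonic reads and 0.260 times in intronic reads. Col8a1 fell in intronic reads, to 0.324 times the WT level, with a smaller difference in exonic reads that did not pass. In exonic reads 1 of 7 tested genes fell and 0 rose, where 16.6% of the 10706 genes tested passed, 7.36% falling and 9.28% rising. In intronic reads 2 of 7 fell and 0 rose, where 6.51% of 10215 genes passed, 3.65% falling and 2.86% rising. Tests are limma fits over every gene whose mean over both groups reached 50 normalised counts, adjusted by the Benjamini-Hochberg method, with 0.05 as the threshold. Differences are on the log2(normalised count + 1) scale ± their standard error, 2 libraries against 2. The median log2 fold change of the 7 tested genes was −0.61 in exonic reads, beside 0.01 over all genes tested, and −0.68 in intronic reads, beside 0.02. The libraries of KO and WT did not overlap for 4 of the 7 genes in exonic reads, where 63.3% of all tested genes did not overlap, and for 6 of 7 in intronic reads, against 57.5%.

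Col6a3 encodes the longest chain of the collagen VI trimer, from whose end the soluble fragment endotrophin is cut. It had 4761 and 5366 normalised exonic counts in KO libraries, against 16407 and 16108 in WT libraries. Both KO libraries lay far below both WT libraries, and the 2 libraries of each genotype lay close together. The log2 fold change was −1.69 ± 0.13 (limma adjusted p = 0.00460). Intronic counts were 728 and 942 in KO libraries, against 3154 and 3221 in WT libraries, with no overlap. The intronic change was −1.94 ± 0.17 (limma adjusted p = 0.00822). Col6a3 passed in exonic and in intronic reads under each of the 11 alternative settings run for it.

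The partner chains differed less. Col6a1, the highest of the 8 per length, had 16356 and 31628 normalised exonic counts in KO libraries, against 29081 and 41600.1 in WT libraries. The higher KO library lay above the lower WT library, so the groups overlapped. The log2 difference was −0.61 ± 0.36 (limma adjusted p = 0.284) in exonic reads and −0.57 ± 0.29 (limma adjusted p = 0.293) in intronic reads. The exonic value was −0.14 (limma adjusted p = 0.848) without KO library 1 and −1.09 (limma adjusted p = 0.125) without KO library 2. Col6a2 had 4975 and 10671 in KO libraries, against 9491 and 13416 in WT libraries, and overlapped in the same way. Its difference was −0.63 ± 0.39 (limma adjusted p = 0.306) in exonic and −0.68 ± 0.32 (limma adjusted p = 0.266) in intronic reads. Without KO library 1 the exonic value of Col6a2 was −0.08 (limma adjusted p = 0.903), and without KO library 2 it was −1.18 (limma adjusted p = 0.0761). Neither gene passed the test with any 1 library left out.

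Because the chains form 1 molecule, their ratio was read in each library as exonic reads per kilobase. Col6a3 over Col6a1 was 0.110 and 0.0641 in KO libraries, against 0.213 and 0.146 in WT libraries. The groups did not overlap, and the log2 ratio differed by −1.07. Col6a2 over Col6a1 was 0.208 and 0.230 in KO libraries, against 0.223 and 0.220 in WT libraries, a log2 difference of −0.02. With 2 libraries per group no exact permutation test can reach 0.05, so the ratios are given without one. Over all 12 libraries Col6a2 over Col6a1 stayed between 0.191 and 0.267, while Col6a3 over Col6a1 ranged between 0.0641 and 0.461. In Sox9 libraries Col6a3 over Col6a1 was 0.385 and 0.349, in Pbx3 libraries 0.461 and 0.224 and in Tead4 libraries 0.363 and 0.253, against 0.256 and 0.186 in vector libraries. The Sox9 libraries lay above both vector libraries, and those of Pbx3 and Tead4 overlapped them.

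**Figure D2:**
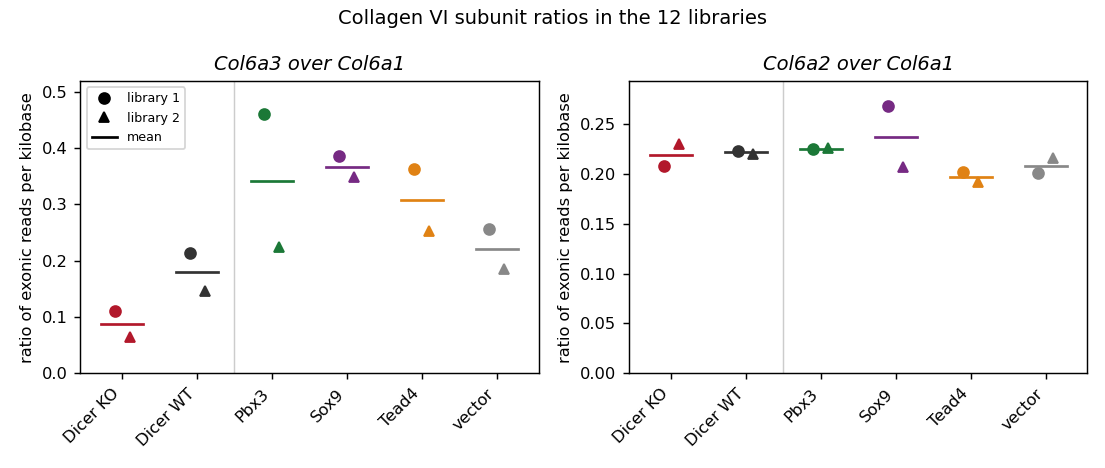
Ratio of exonic reads per kilobase (y axis, from 0) of Col6a3 over Col6a1 and of Col6a2 over Col6a1 in the 2 libraries of each group, with the mean as a bar. The ratio with Col6a3 was lowest in Dicer KO libraries, at 0.110 and 0.0641, while the ratio of Col6a2 to Col6a1 stayed between 0.191 and 0.267.

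Col6a1 and Col6a2 lie on chromosome 10 and Col6a3 on chromosome 1. Their promoters are shown because the levels of Col6a1 and Col6a2 moved together and those of Col6a3 did not. Over the 12 libraries Pearson's r of log2(RPM + 1) was 0.98 between Col6a1 and Col6a2, 0.25 between Col6a1 and Col6a3 and 0.27 between Col6a2 and Col6a3. These points share libraries and depth, so the coefficients are descriptions. Each sequence runs from 250 bases before to 50 bases after the annotated start, on the minus strand of GRCm38.p6, from RefSeq. The 3 windows are chr10:76725995-76726294 for Col6a1, chr10:76623355-76623654 for 1 of the 2 Col6a2 starts and chr1:90843922-90844221 for Col6a3. Capitals mark a TEAD motif.
Col6a1: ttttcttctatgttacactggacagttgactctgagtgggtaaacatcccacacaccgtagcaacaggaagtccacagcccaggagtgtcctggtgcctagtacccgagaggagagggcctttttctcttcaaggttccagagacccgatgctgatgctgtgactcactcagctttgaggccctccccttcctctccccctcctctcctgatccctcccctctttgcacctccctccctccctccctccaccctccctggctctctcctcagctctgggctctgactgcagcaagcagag
Col6a2: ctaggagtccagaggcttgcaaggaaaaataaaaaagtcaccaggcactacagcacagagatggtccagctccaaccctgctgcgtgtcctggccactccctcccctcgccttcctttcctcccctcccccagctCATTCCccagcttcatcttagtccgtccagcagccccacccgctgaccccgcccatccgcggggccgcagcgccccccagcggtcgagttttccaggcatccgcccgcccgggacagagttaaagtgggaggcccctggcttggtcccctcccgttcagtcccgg
Col6a3: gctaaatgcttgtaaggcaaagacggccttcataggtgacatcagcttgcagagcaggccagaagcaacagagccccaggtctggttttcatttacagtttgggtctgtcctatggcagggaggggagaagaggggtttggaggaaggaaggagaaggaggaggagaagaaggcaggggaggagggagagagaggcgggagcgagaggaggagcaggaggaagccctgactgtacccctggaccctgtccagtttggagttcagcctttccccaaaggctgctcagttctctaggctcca
Motifs were searched on both strands in the 8 promoters that the table held for 6 of the genes. The TEAD motif GGAATG was found in the Col6a2 promoter shown and in 1 of 2 Col18a1 promoters, where 14.7% of 32851 mouse promoters hold it. The SOX motif ACAAAG, the PBX motif TGATNNAT and TATAAA were in none of the 8, and are held by 18.7%, 8.85% and 13.6% of promoters. No stretch of these promoters matched more than 1 of the motifs.

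Col8a1 encodes the alpha 1 chain of collagen VIII, a short-chain collagen of vessel walls and of Descemet's membrane in the eye. It had 11354 and 9580.4 normalised exonic counts in KO libraries, against 14033 and 17627 in WT libraries. The KO libraries lay below both WT libraries, and the difference of −0.59 ± 0.18 did not pass (limma adjusted p = 0.0788). Intronic counts were 2541 and 2077 in KO libraries, against 6689 and 7529.8 in WT libraries, and fell by 1.63 ± 0.16 (limma adjusted p = 0.0110). Without KO library 2 the intronic value was −1.48 (limma adjusted p = 0.0670). The exonic value was −0.76 (limma adjusted p = 0.0350) without WT library 1, −0.43 (limma adjusted p = 0.185) without WT library 2 and −0.47 (limma adjusted p = 0.374) without KO library 2.

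The 2 kinds of reads were then compared within libraries, as log2 exonic minus log2 intronic counts. For Col8a1 this value was 2.16 and 2.21 in KO libraries, against 1.07 and 1.23 in WT libraries. It rose by 1.03 ± 0.11 (limma adjusted p = 0.0129), and was the only 1 of the 7 tested genes to pass, where 3.34% of 9402 genes passed, 2.5% rising and 0.84% falling. The libraries did not overlap for 2 of the 7 genes, Col8a1 and Col6a3, where 50.1% of all tested genes did not. Col8a1 passed in each of the 7 alternatives, with values between 0.96 and 1.11. For Col6a3 the value was 2.71 and 2.51 in KO libraries, against 2.38 and 2.32 in WT libraries, a difference of 0.26 ± 0.12 that did not pass (limma adjusted p = 0.290). The other 2 genes with a miR-29 seed match had differences of 0.05 ± 0.13 for Col6a2 and −0.19 ± 0.19 for Col15a1. The 3 tested genes without one had −0.05 ± 0.13 for Col6a1, 0.08 ± 0.17 for Col12a1 and −0.08 ± 0.11 for Col18a1. Which exonic library belongs with which intronic library was read from the variation both kinds of reads share.

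**Figure D3:**
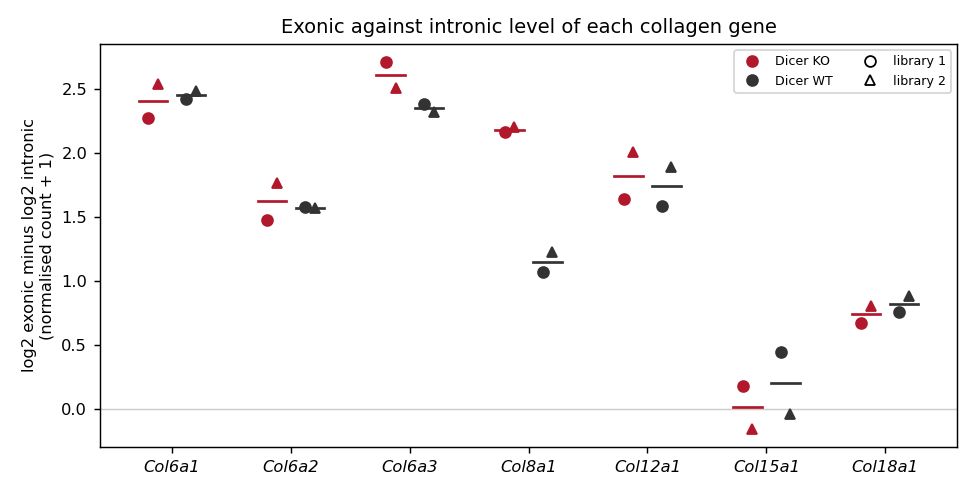
Log2 exonic minus log2 intronic normalised count (+ 1) of the 7 tested collagen genes (y axis) in the 2 Dicer KO and the 2 Dicer WT libraries, with the mean as a bar. The Col8a1 values of KO, 2.16 and 2.21, lie apart from those of WT, 1.07 and 1.23, and the other genes lie closer together.

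Collagen XII, encoded by Col12a1, binds collagen I fibrils in tendon, ligament and other loaded tissue. It had 39339 and 52227 normalised exonic counts in KO libraries, against 49971 and 54187 in WT libraries. The groups overlapped, and the difference was −0.20 ± 0.20 (limma adjusted p = 0.516) in exonic reads, near 0 without KO library 1, and −0.28 ± 0.15 (limma adjusted p = 0.324) in intronic reads. Col14a1, which encodes the related collagen XIV of skin and tendon, had 1 and 3 exonic reads in KO libraries and 0 in both WT libraries. It lay below the minimum and was not tested. A total of 0 reads allows up to 0.0719 RPM over the WT group, so a level under that limit could not be detected. Intronic reads of Col14a1 numbered 11 and 8 in KO libraries and 11 and 17 in WT libraries.

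Collagens XV and XVIII are proteoglycans whose C-terminal pieces, restin and endostatin, are known to hold back vessel growth. Col15a1 had 13.8 and 37.2 normalised exonic counts in KO libraries, against 79.2 and 127 in WT libraries. Both KO libraries lay below both WT libraries. The difference of −2.09 ± 0.58 missed the threshold (limma adjusted p = 0.0661), while the authors' deposited table gave a log2 ratio of −2.02 with an adjusted p of 0.0184. It was −2.43 (limma adjusted p = 0.0251) without WT library 1, −1.76 (limma adjusted p = 0.0833) without WT library 2 and −1.41 (limma adjusted p = 0.207) without KO library 1. In intronic reads it was −1.90 ± 0.70 (limma adjusted p = 0.182), and between −2.76 and −1.05 with 1 library left out, never passing.

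Col18a1 had a positive difference, the only 1 among the 7 tested. It had 674 and 973 normalised exonic counts in KO libraries, against 352 and 659 in WT libraries. Both KO libraries lay above both WT libraries, but only narrowly, and the difference of 0.75 ± 0.35 did not pass (limma adjusted p = 0.1997). Intronic counts were 423 and 555 in KO libraries, against 207 and 357 in WT libraries, a difference of 0.83 ± 0.31 (limma adjusted p = 0.184). Without WT library 2 the exonic value was 1.20 (limma adjusted p = 0.0204) and the intronic value 1.22 (limma adjusted p = 0.0279). Without WT library 1 they were smaller, at 0.30 (limma adjusted p = 0.484) in exonic and 0.44 (limma adjusted p = 0.275) in intronic reads.

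**Figure D4:**
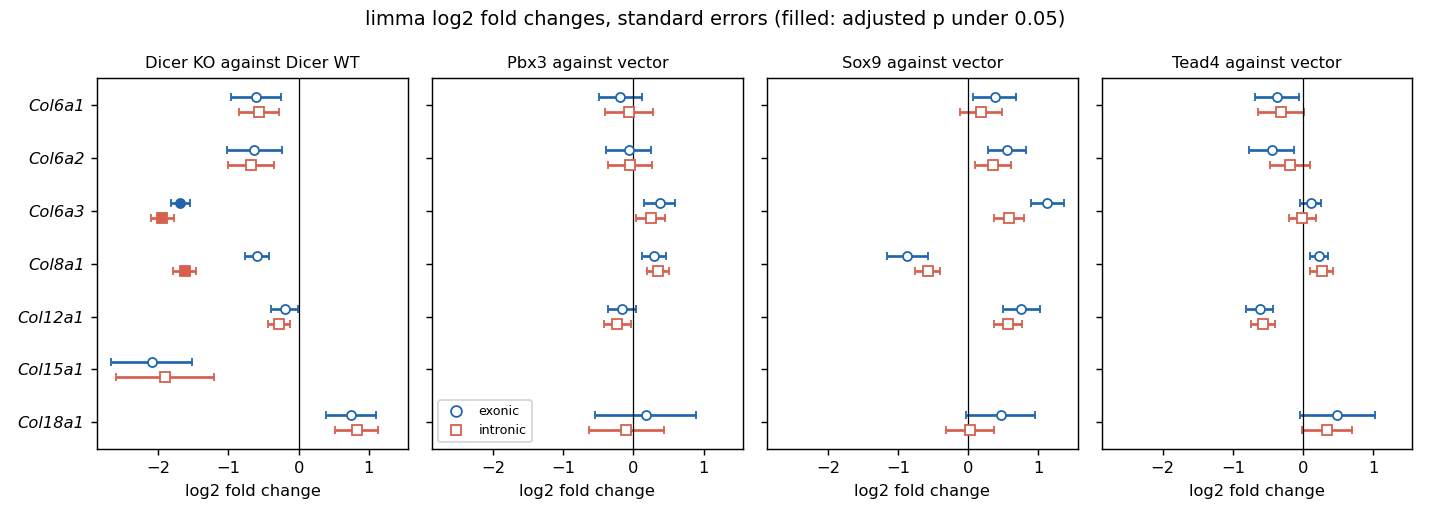
Limma log2 fold change (x axis) with its standard error for each tested collagen gene in exonic reads (circles) and intronic reads (squares), 1 panel per comparison; filled symbols passed at an adjusted p under 0.05. Only Col6a3 (exonic and intronic) and Col8a1 (intronic) are filled, both in Dicer KO against Dicer WT.

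Sox9 is the main transcription factor of cartilage. None of the 6 collagen genes tested in Sox9 cells passed, where 0.547% of 9698 genes passed in exonic reads, 0.454% higher and 0.0928% lower. In intronic reads 1.99% of 8361 genes passed, 1.45% higher and 0.538% lower. At an unadjusted p under 0.05 there were 3 of 6 in exonic reads, where 1263 of the 9698 genes tested were, and 3 of 6 in intronic reads, where 1438 of 8361 were. The authors' deposited tables called 0 of 8. They called 167 of 23227 listed genes in exonic and 214 of 23231 in intronic reads, totals that include genes without reads. Exonic libraries of Sox9 and vector did not overlap for 4 of the 6 genes, where 45.3% of all tested genes did not overlap, and intronic libraries for 3 of 6, against 48.9%. The median log2 fold change of the 6 genes was 0.51 in exonic reads, beside −0.02 over all genes tested. The authors normalised each factor table on its own, so the vector libraries have other normalised counts beside each factor, from the same reads.

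Col6a3 had 8383 and 11984 normalised exonic counts in Sox9 libraries, against 4253 and 4949 in vector libraries. Both Sox9 libraries lay above both vector libraries, with a difference of 1.13 ± 0.23 (limma adjusted p = 0.120). In intronic reads it was 0.58 ± 0.22 (limma adjusted p = 0.225). Whether the exonic value passed rested on the choice of libraries, in fits whose counts over all genes also moved with the library left out. The value was 1.38 without Sox9 library 1, 1.02 without vector library 1, 1.24 without vector library 2 and 0.87 without Sox9 library 2.

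Col12a1 had 18106 and 25208 in Sox9 libraries, against 11402 and 13970.2 in vector libraries. The groups did not overlap and the difference was 0.76 ± 0.26 (limma adjusted p = 0.304) in exonic and 0.57 ± 0.20 (limma adjusted p = 0.207) in intronic reads. Col8a1 lay the other way. It had 1293 and 2474 normalised exonic counts in Sox9 libraries, against 3206 and 3331 in vector libraries, and both Sox9 libraries lay below both vector libraries. The difference was −0.87 ± 0.29 (limma adjusted p = 0.302), and −0.58 ± 0.17 (limma adjusted p = 0.143) in intronic reads. The exonic value was −1.34 without Sox9 library 2, −0.90 without vector library 1 and −0.84 without vector library 2, but −0.40 without Sox9 library 1.

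The collagen VI partner chains of Sox9 cells had smaller differences. Col6a1 had 8220.4 and 12969.9 in Sox9 libraries, against 6285 and 10074 in vector libraries, with overlap and a difference of 0.38 ± 0.31 (limma adjusted p = 0.642). Col6a2 had 3220.5 and 3935, against 1844 and 3181 in vector libraries, a difference of 0.56 ± 0.27 (limma adjusted p = 0.431). Its Sox9 libraries lay just above the higher vector library. Col18a1 had 109 and 146, against 51.4 and 162 in vector libraries, with overlap and a difference of 0.46 ± 0.49 (limma adjusted p = 0.719). Without vector library 2 the values were 0.95 for Col6a2 and 1.28 for Col18a1. Without vector library 1 Col6a2 shrank to 0.16 and Col18a1 turned to −0.36, the other direction. Col6a1 was 0.0355 without vector library 1 and 0.72 without vector library 2. Col14a1 was detected in both Sox9 libraries, with 4 and 7 exonic reads, and had 0 reads in both vector libraries. Over a floor of 3 reads in the vector group the pooled Sox9 level was 5.17-fold, a value that leaves out the counting error of its own 11 reads. The gene was too low to be tested. Its intronic reads numbered 6 and 7 in Sox9 libraries and 3 and 8 in vector libraries. Col15a1, also below the minimum, had 26.0 and 56.6 normalised counts in Sox9 libraries and 18.8 and 30.5 in vector libraries, with overlap.

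Tead4 is a DNA-binding partner of the Hippo pathway co-activator YAP. None of the 6 tested collagen genes passed in Tead4 cells, where 0.143% of 9796 genes passed in exonic reads, 0.0817% higher and 0.0612% lower. In intronic reads 1.61% of 8582 genes passed, 0.757% higher and 0.851% lower. Libraries did not overlap for 2 of 6 genes in exonic and 2 of 6 in intronic reads, where 49.2% and 48.2% of all tested genes did not. At an unadjusted p under 0.05 there was 1 of 6 in exonic reads, where 1554 of the 9796 genes tested were, and 1 of 6 in intronic reads, where 1327 of 8582 were. The authors' deposited tables called 0 of 8, of which Col14a1 had no exonic value with Tead4. They called 250 of 23227 listed genes in exonic and 189 of 23231 in intronic reads, totals that include genes without reads. Of the tested genes Col12a1 stood farthest from vector relative to its error. It had 8570.3 and 11007 normalised exonic counts in Tead4 libraries, against 13406 and 16589 in vector libraries, and the groups did not overlap. The difference was −0.62 ± 0.19 (limma adjusted p = 0.232) in exonic and −0.58 ± 0.17 (limma adjusted p = 0.173) in intronic reads. The exonic value was −0.77 (limma adjusted p = 6.02e-05) without vector library 1 and −0.46 (limma adjusted p = 0.0151) without vector library 2, in fits that called 1136 and 2375 of all genes, against 14 with every library. Without Tead4 library 1 it was −0.44 (limma adjusted p = 0.999). Without vector library 1 the intronic value was −0.70 (limma adjusted p = 0.0325).

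Col6a1 had 5761 and 9237 normalised exonic counts in Tead4 libraries, against 7389.5 and 11963 in vector libraries, a difference of −0.37 ± 0.31 (limma adjusted p = 0.608). Col6a2 had 1699 and 2592, against 2169 and 3777 in vector libraries, a difference of −0.45 ± 0.32 (limma adjusted p = 0.533). Both overlapped between groups. Without vector library 1 they were −0.71 (limma adjusted p = 0.000348) for Col6a1 and −0.85 (limma adjusted p = 6.12e-06) for Col6a2. Without vector library 2 they were close to 0, at −0.02 (limma adjusted p = 0.952) and −0.05 (limma adjusted p = 0.858) for the same genes. Col6a3, at 0.11 ± 0.15, and Col8a1, at 0.23 ± 0.12, had smaller differences with limma adjusted p values of 0.760 and 0.422. Col18a1 differed by 0.49 ± 0.54 (limma adjusted p = 0.696) and by 1.32 (limma adjusted p = 7.54e-05) without vector library 2, but turned to −0.34 (limma adjusted p = 0.422) without vector library 1. Col15a1 had 5 and 11 exonic reads in Tead4 libraries, against 19 and 42 in vector libraries, and was not tested. Col14a1 had 0 exonic reads in all 4.

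Pbx3 is a homeodomain transcription factor that binds DNA with Hox and Meis proteins. None of the 6 tested collagen genes passed in Pbx3 cells, where 0.0102% of 9826 genes passed in exonic and 0% of 8557 in intronic reads. At an unadjusted p under 0.05 there were 0 of 6 in either kind of reads, where 233 of the 9826 genes tested were in exonic and 248 of 8557 in intronic reads. The authors' deposited tables called 0 of 8 in either kind of reads. They called 15 of 23227 listed genes in exonic and 19 of 23231 in intronic reads, totals that include genes without reads. Differences lay between −0.19 for Col6a1 and 0.37 for Col6a3, with standard errors from 0.17 for Col8a1 to 0.73 for Col18a1. Col6a3 had 8506 and 5969 normalised exonic counts in Pbx3 libraries, against 5079 and 5949.8 in vector libraries. Its second Pbx3 library lay beside the higher vector library, so the difference in means rested on the first. Libraries did not overlap for 2 of 6 genes in exonic reads, where 24.7% of all tested genes did not, and for 1 of 6 in intronic reads, against 25.8%. Col8a1 had 4368 and 5309, against 3828 and 4004 in vector libraries, with no overlap and a difference of 0.30 ± 0.17. The exonic-minus-intronic value passed for none of the 6 genes with any of the 3 factors, where it passed for 0.0125% of 7973 genes with Pbx3, 0.0128% of 7784 with Sox9 and 0.0251% of 7984 with Tead4. Its libraries did not overlap for 0, 5 and 1 of the 6 genes with Pbx3, Sox9 and Tead4, where 27.4%, 45.3% and 34.3% of all tested genes did not. The nearest to it was Col6a3 in Sox9 cells, with 2.21 and 2.31 in Sox9 libraries, against 1.85 and 1.58 in vector libraries. That difference was 0.54 ± 0.14 (limma adjusted p = 0.347). It was the 1 of 6 genes with an unadjusted p under 0.05, where 938 of the 7784 genes tested had one.

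The 2 libraries of a group differed from each other for several of these genes by as much as the groups did. Libraries were numbered so that library 1 lies on the same side of the variation that all groups share, an order read from the same reads and not from the labels. Col6a1 was higher in library 2 of all 6 groups, by 1.95-fold in Dicer KO, 1.52-fold in Dicer WT, 1.53-fold in Pbx3, 1.52-fold in Sox9, 1.64-fold in Tead4 and 1.70-fold in vector cells. For Col6a2 the fold lay between 1.18 in Sox9 and 2.16 in Dicer KO cells, and for Col18a1 between 1.29 in Sox9 and 3.34 in vector cells. Col12a1 was also higher in library 2 of all 6 groups, by 1.15-fold to 1.34-fold. Col6a3 and Col8a1 were higher in library 2 of 5 groups and lower in 1, Pbx3 for Col6a3 and Dicer KO for Col8a1. The order was chosen to line up the groups, so a shared direction of single genes is no separate evidence. What differed between the libraries is not given in the sources used here, and its part in the results was not tested. Within library 1 the exonic log2 difference of Col6a3 between KO and WT was −1.78 and within library 2 −1.59. For Col6a1 these were −0.83 and −0.40, while its KO and WT libraries overlapped. These pairs follow an order read from the same reads, so they are no separate evidence of a difference.

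**Figure D5:**
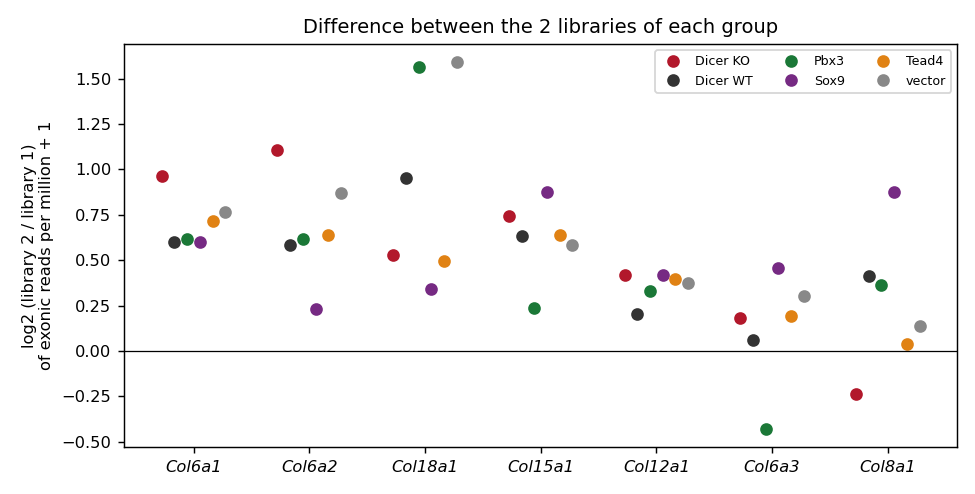
Log2 ratio of library 2 over library 1 in exonic RPM, plus 1 (y axis), for 7 collagen genes in the 6 groups. Col6a1, Col6a2, Col18a1, Col15a1 and Col12a1 lie above 0 in all 6 groups, while Col6a3 (Pbx3) and Col8a1 (Dicer KO) each lie below 0 in 1.

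Other genes of the collagen matrix were read from lists, with values in exonic reads of Dicer KO against Dicer WT. Over all genes tested in this comparison, 9.28% rose and 7.36% fell. Among relatives of the 8 genes only 2 of 12 were tested, and Col16a1, another fibril-associated collagen, fell by 0.78 ± 0.18 (limma adjusted p = 0.0446). The other, Col8a2, lay the other way at 0.78 ± 0.39 and did not pass (limma adjusted p = 0.219). Of 7 tested fibrillar collagen genes 5 fell and 0 rose. Col1a1, a chain of collagen I, had 1010.4 and 1239 normalised counts in KO libraries, against 6282 and 4937 in WT libraries, a log2 fold change of −2.31 ± 0.18 (limma adjusted p = 0.00460). Col1a2, its partner chain, was at −0.96 ± 0.15, and the cartilage genes Col2a1 and Col27a1 were at −4.12 ± 0.41 and −3.83 ± 0.28. The median of the 7 was −0.96. In the list of basement membrane and other collagens 4 of 6 tested genes rose and 2 fell. Col4a1, a chain of the collagen IV network, had 9329.8 and 13056 in KO libraries, against 2409.7 and 2181 in WT libraries, a log2 fold change of 2.27 ± 0.19 (limma adjusted p = 0.00501). Col4a2, Col4a5 and Col7a1, the anchoring fibril collagen, also rose. Col4a6 and the growth-plate collagen gene Col10a1 fell.

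Of 27 tested genes for collagen synthesis and crosslinking 3 rose and 4 fell, with a median of −0.08. Adamts14, a procollagen protease, rose by 2.96 ± 0.22, Loxl4 by 1.75 ± 0.20 and the prolyl 3-hydroxylase gene Leprel1 by 1.11 ± 0.14. Leprel2, another prolyl 3-hydroxylase gene, was at −2.49 ± 0.21, the crosslinking enzyme gene Loxl1 at −1.16 ± 0.18, Adamts3 at −1.59 ± 0.25 and the prolyl isomerase gene Ppib at −0.98 ± 0.13. All 4 fell. Among 10 tested binding partners of these collagens Lamc1, a laminin chain, rose and Tnc, which encodes tenascin C, fell by 3.39 ± 0.28 (limma adjusted p = 0.00478). Of 11 tested genes in the collagen receptor list 4 rose and 0 fell, beside 9.28% rising and 7.36% falling over all genes tested. The 4 were the integrin genes Itgb3 and Itgav, the collagen uptake receptor gene Mrc2 and Ddr2, a receptor tyrosine kinase that binds fibrillar collagen. Of the other integrin genes tested, Itga1 was at −0.92 ± 0.58, Itga11 at −0.48 ± 0.30 and Itgb1 at 0.08 ± 0.24, and none passed. Of the 9 tested stromal markers S100a4 and Ly6a fell in KO cells and 0 rose, and their part in these differences was not tested.

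In Sox9 cells 3 of 8 tested fibrillar collagen genes rose and 0 fell, where 0.454% of all genes tested rose and 0.0928% fell. Col2a1, the main collagen of cartilage, had 8752 and 11604 normalised counts in Sox9 libraries, against 326 and 423 in vector libraries, a log2 fold change of 4.76 ± 0.21 (limma adjusted p = 0.000227). Col11a1, which copolymerises with it, rose by 5.72 ± 0.33 and Col5a1 by 1.09 ± 0.17. Col4a5 was the 1 of 4 tested in the basement membrane list that rose, and Nid2, which encodes a nidogen, the 1 of 10 binding partners. None of the synthesis or receptor genes passed in exonic reads with Sox9. In intronic reads with Sox9 Col11a1, Col2a1 and Col3a1 rose, 3 of 8 fibrillar genes, as did Col4a6 and Col4a5, 2 of 4 in their list. P4ha3 rose, 1 of 26 synthesis genes, and Fbln2 fell, 1 of 9 binding partners. Over all 8361 genes tested in these reads 1.45% rose and 0.538% fell. With Pbx3 and with Tead4 none of the genes of these 6 lists passed in exonic reads, where 0.0102% and 0.143% of all genes tested passed. In intronic reads none passed with Pbx3. With Tead4 Col4a1, Col4a2 and Col4a5 rose in intronic reads, 3 of 4 tested in their list. Col11a1, 1 of 7 fibrillar genes, rose as well. Lox, Tnc, Antxr1 and Itga11 fell in these reads, where 1.61% of 8582 genes passed.

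The genes whose levels were most like each collagen gene were taken as the 3 highest Pearson correlations over the 12 libraries, among the 10295 genes averaging 50 or more exonic reads. For Col6a1 they were Col6a2 (r = 0.98), Olfml2b (r = 0.96) and Plin4 (r = 0.95). For Col6a2, after Col6a1, they were Synm (r = 0.95) and Pld3 (r = 0.94). Col6a3 had other neighbours, Col4a6 (r = 0.95), Palm2 (r = 0.94) and Cald1 (r = 0.94), of which Col4a6 also fell in KO cells. Col8a1 was most like ORF61 (r = 0.91), Tspan9 and Apba3, and Col12a1 most like Slc35b2 (r = 0.94), Ptprv and Pfn2. Col18a1 was most like Khnyn (r = 0.97), C1qtnf1 and Stub1. Among the collagen genes themselves Col12a1 followed Col6a1 (r = 0.85) and Col6a2 (r = 0.88), while Col8a1 and Col6a3 had r = −0.34. Col14a1 and Col15a1 had too few reads to enter.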

How the data were processed

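Ribosome-depleted total RNA of 6 groups was sequenced, with 1 sample listed for each. Per the submitters' processing notes, Bowtie2 and mm9 were used for alignment, and the authors used DESeq 1.10.1. The signal values are normalised counts, that is reads per gene over a size factor and averaged within each group by the authors. Deposited beside them are the ratio of both means (fold), its log2 and the p-value with its adjusted form, per the file headers. The sources used here do not say how reads were assigned to exons or introns, whether strand was used, or what was done where genes overlap. All value columns were assigned to a group (0 unassigned).

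Each deposited mean was solved for 2 size factors and whole reads, uniquely for 100% of genes (tolerance 1e-09), and the 3 factor tables gave differing vector reads for 0 genes. This step was tested on simulated data. No source says that the 2 libraries were separate cultures: p-values reflect their spread alone, possibly technical. Floors cover counting error only. limma 3.58.1 in R 4.3.3 was run with a variance trend on log2(normalised count + 1), and with 1 prior variance for exonic minus intronic values. The genes, lists and tests were chosen with earlier results of these data known. All 8 genes were named, and from each list at most the 4 genes per direction with the largest change among those passing in exonic reads. List genes passing in intronic reads with Sox9 or Tead4, the other tested integrin genes and Col8a2 were named besides. Lengths, 3′ UTRs and chromosomes came from GENCODE vM21 and promoters and microRNAs from RefSeq, both on GRCm38. Alternatives were a minimum mean of 0 or 200, a pseudocount of 10, scaling to total reads or to the upper quartile, each library left out, a block for library order, 1 fit of the groups sharing a control, and the deposited adjusted p. For exonic minus intronic values, the variance trend and leaving out libraries were added after seeing the data, as was leaving out libraries for the chain ratios.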

Additional observations from a re-analysis of the deposited data

How the results depend on the processing

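Under the alternatives that kept all libraries, none of the collagen values that were followed changed sign. There 272 results kept their side of the threshold and 20 newly passed or counted more genes. Col18a1 in intronic reads of Sox9 was not among those followed. Its log2 difference was 0.03 ± 0.34 by limma and −0.05 as deposited by the authors, the other direction. In Dicer KO against WT the deposited adjusted p called 2 genes in exonic reads, Col6a3 and Col15a1, in place of 1. It called 1729 of the 15732 genes with reads. The replicate block for library order, which the labels do not give, called 6 genes in exonic and 6 in intronic reads for Dicer KO, 1 and 1 for Pbx3, 4 and 4 for Sox9 and 1 and 1 for Tead4. In exonic reads of Dicer KO the 6 were Col6a1, Col6a2, Col6a3, Col8a1, Col15a1 and Col18a1. The block also called 5052 of all 10706 genes tested in exonic reads of Dicer KO, and its other counts over all genes are given below. It rests on an order read from the same reads, whose correlation between groups was between 0.33 and 0.82 in exonic reads. Leaving out 1 library, where the lone library is assumed to vary like the other group, gave 1 to 3 genes in exonic and 1 to 3 in intronic reads for Dicer KO, 1 to 4 in exonic reads for Sox9, and 0 to 3 in exonic and 0 to 1 in intronic reads for Tead4.

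Some signs changed when 1 library was left out, and the cause was not tested. In exonic reads the log2 difference of Col12a1 in Dicer KO ranged between −0.40 and 0.00528. With Pbx3 it ranged between −0.53 and 0.16 for Col6a1, −0.47 and 0.33 for Col6a2, and −0.65 and 0.998 for Col18a1. For Col18a1 it ranged between −0.36 and 1.28 with Sox9 and between −0.34 and 1.32 with Tead4, and for Col6a3 with Tead4 between −0.00807 and 0.22. Exonic minus intronic values in Dicer KO ranged between −0.18 and 0.0867 for Col6a1, −0.0956 and 0.20 for Col6a2, −0.0981 and 0.26 for Col12a1 and −0.43 and 0.0532 for Col15a1. The log2 ratio of Col6a3 to Col6a1 ranged between −1.46 and −0.68 in KO against WT and between 0.52 and 0.98 in Sox9 against vector.

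Counts over all genes moved more. The block called 5052 genes in exonic reads of Dicer KO (1782 without it) and 3112 in intronic reads (665), 596 and 623 with Pbx3 (1 and 0), 1790 and 1558 with Sox9 (53 and 166) and 857 and 1389 with Tead4 (14 and 138). The intronic count of Dicer KO was 377 at a minimum mean of 200. The exonic minus intronic count was 494 at that minimum, 881 with the block and 657 with the variance trend, against 314. For Sox9 the exonic count was 165 with no minimum, 23 at 200, 26 by upper quartile and 167 by deposited p, and the intronic count 262 with no minimum. For Tead4 the exonic count was 91, 9, 8 and 250 under the same settings and 77 in 1 joint fit, and the intronic count 315 with no minimum, 50 at 200 and 58 by total reads. With 1 library left out the exonic count ranged between 535 and 1908 for Dicer KO, 73 and 1271 for Sox9 and 5 and 2375 for Tead4, and the intronic count between 162 and 955, 114 and 389, and 49 and 900. The exonic minus intronic count of Dicer KO then ranged between 185 and 640. Depth limits Col14a1 and Col15a1 most.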
